A study of Mus musculus with 22 samples.

Results

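The 35 genes described here encode the antioxidant defences of the cell that are linked to the transcription factor NRF2: the glutathione, thioredoxin and peroxidase systems, superoxide dismutases and catalase, the enzymes that supply NADPH, and genes of haem and iron redox chemistry. Glutathione S-transferases were left out. They were picked by gene symbol, and all 35 symbols had 1 entry each among the 55487 genes of the count table. All 35 also passed the filter on low counts and were tested.

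Kidneys of 22 male wild-type C57BL/6JRj mice were sequenced, 1 library per animal. Of these, 6 were young (4 months), 8 were old (21 months) and a further 8, also 21 months old, had eaten chow with added nicotinamide. The nicotinamide dose was 200 mg per kg body weight per day, or 1.6 g per kg of food, for 14 weeks. Nicotinamide is a vitamin from which cells make NAD. None of the groups carried a transgene or a deletion per the labels, and each library came from a piece of kidney tissue, in which cell types were mixed.

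NRF2, encoded by Nfe2l2, is held at a low level by KEAP1, an adaptor that marks it for degradation and that carries reactive cysteines. When oxidants or electrophiles modify those cysteines, NRF2 accumulates and binds antioxidant response elements near genes such as Nqo1, Gclm, Srxn1 and Txnrd1. The proximal tubule of the kidney, rich in mitochondria and peroxisomes, is a major site of these enzymes and also expresses Nox4, which releases hydrogen peroxide. Since NRF2 is controlled mainly by protein stability, the mRNA of Nfe2l2 says little about its activity.

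Depth was 3351065 to 8319865 gene counts per library, and young replicate 6 had the lowest. Markers of kidney tubules were present in every kidney: the summed level of 8 genes of proximal tubule segments S1 and S2 was 7391 to 9060 CPM in young kidneys, where CPM are counts scaled to a library total of 1000000. It was 5869 to 8064 CPM in old kidneys and 4354 to 7495 CPM with nicotinamide. Macrophage markers (12 genes) summed to 153 to 189 CPM (young), 276 to 519 CPM (old) and 295 to 597 CPM (nicotinamide). Of the adrenal markers, Cyp11b1, Cyp11b2 and Cyp21a1 had no count in any library. Some kidneys stood apart. Nicotinamide replicate 1 had the lowest S1 and S2 sum and the highest sum of 5 adipocyte markers (362 CPM). Nicotinamide replicate 7 had the highest sum of T and natural killer cell markers (126 CPM) and of red cell markers (3151 CPM). Old replicate 7 had 99.6 CPM of urothelial markers, the highest of the old kidneys. Results that rest on these kidneys or on young replicate 6 are given with and without them. Mitochondrial ribosomal RNA took 9.54% to 10.5% of the counts (young), 10.8% to 12.5% (old) and 7.63% to 10.9% (nicotinamide). With ribosomal RNA and mitochondrially encoded genes removed before scaling, 7 members passed for old against young and 5 for nicotinamide against young, as in the full data.

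Each library read the 3′ ends of transcripts, about 1 fragment per transcript, so CPM values of different genes are compared here without division by gene length. Levels spread over a wide range. Gpx3, the selenium-dependent glutathione peroxidase that proximal tubules secrete into plasma, had the highest level at 17925 ± 1755 CPM in young (SD, n = 6), 16913 ± 2355 in old (n = 8) and 18224 ± 2424 CPM in nicotinamide-fed mice (n = 8). Its level lay above that of 99.9% of the 14683 tested genes. Next came Fth1, the heavy chain of ferritin that stores iron, with a mean of 2375 CPM over all kidneys, Gpx1, the cytosolic glutathione peroxidase, with 1719 CPM, and the peroxiredoxin Prdx5 with 1389 CPM. At the low end stood the haem oxygenase Hmox1 (10.00 CPM) and Gpx4 (7.09 CPM), the peroxidase that reduces lipid peroxides. All members together took a median of 2.96% of the counts in young, 2.60% in old and 2.92% in nicotinamide-fed mice. Without Gpx3 the medians were 1.16%, 0.995% and 1.03%.

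**Figure D1:**
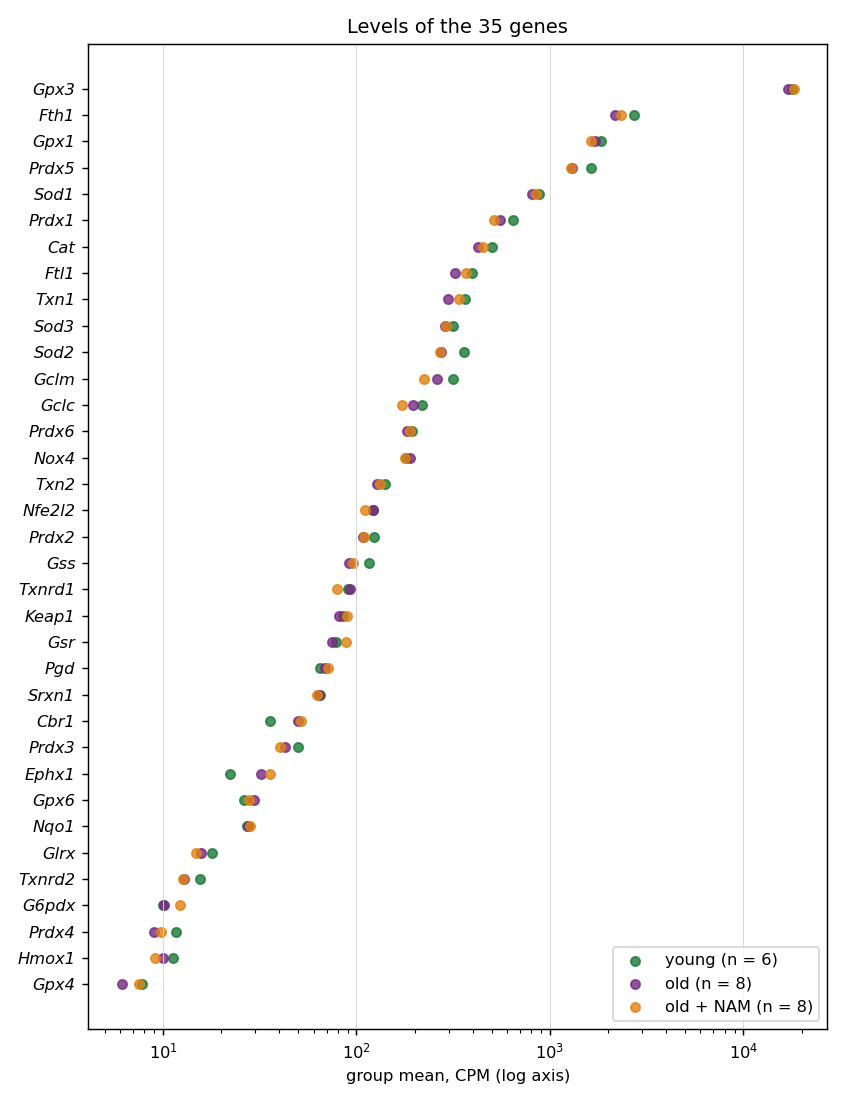
Mean level of the 35 genes in each group (points; horizontal log axis in CPM; young n = 6, old n = 8, old with nicotinamide n = 8), ordered by the mean over all kidneys. Gpx3 at the top lies at 16913 to 18224 CPM and Gpx4 at the bottom at 6.11 to 7.78 CPM, and for most genes the 3 points lie close together.

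Some of these levels are uncertain because the gene shares sequence with copies. For Gpx4, 89.9% of all stretches of 50 bases in the last 500 bases of its coding transcripts also occur in another gene, and the pseudogene Gpx4-ps2 had a mean of 34.9 CPM, more than Gpx4 itself. For Ftl1, the light chain of ferritin, the share was 78.2%. It was 30.2% for Sod1, whose copy Gm8566 had 18.1 CPM, 21.3% for Prdx1, whose copy Gm21399 had 2.86 CPM, and 10.4% for G6pdx. For each of the remaining members it was at most 6.13%. Exons of Gm16754 lie on the other strand over 27.9% of the ends of Keap1 transcripts, and exons of Junb over 14.7% of those of Prdx2. For Ftl1, other genes (Gm10252 and Gm22133) cover 17.9% on the other strand and 16.4% on the same strand. The strand setting of the counting is not given in the sources used here, so reads of such partners may be mixed.

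Old against young kidneys were compared first, to ask how these genes differ with age. Of the 35 members, 6 fell and 1 rose at an adjusted p below 0.05 in edgeR, 20.0% of the list, while 7.04% of all tested genes passed (3.15% downward and 3.90% upward). The 6 that fell were Sod2, Prdx5, Fth1, Gss, Gclm and Txn1, and Ephx1 rose. Changes were small, between 1.2-fold (Gclm) and 1.45-fold (Ephx1). In level, the 6 that fell lay above 90.5% (Gss) to 99.9% (Fth1) of tested genes. Their biological coefficients of variation, the spread between kidneys, ranked at percentiles 1.61 (Gclm) to 12.75 (Gss). Small changes pass more easily in such genes, so the shares of members and of all genes do not compare like genes. The median log2 fold change over the members was −0.15, against 0.01 over all tested genes, with 26 members below 0 and 9 above. The list was chosen with earlier results of these data known, so this lean is a description.

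**Figure D2:**
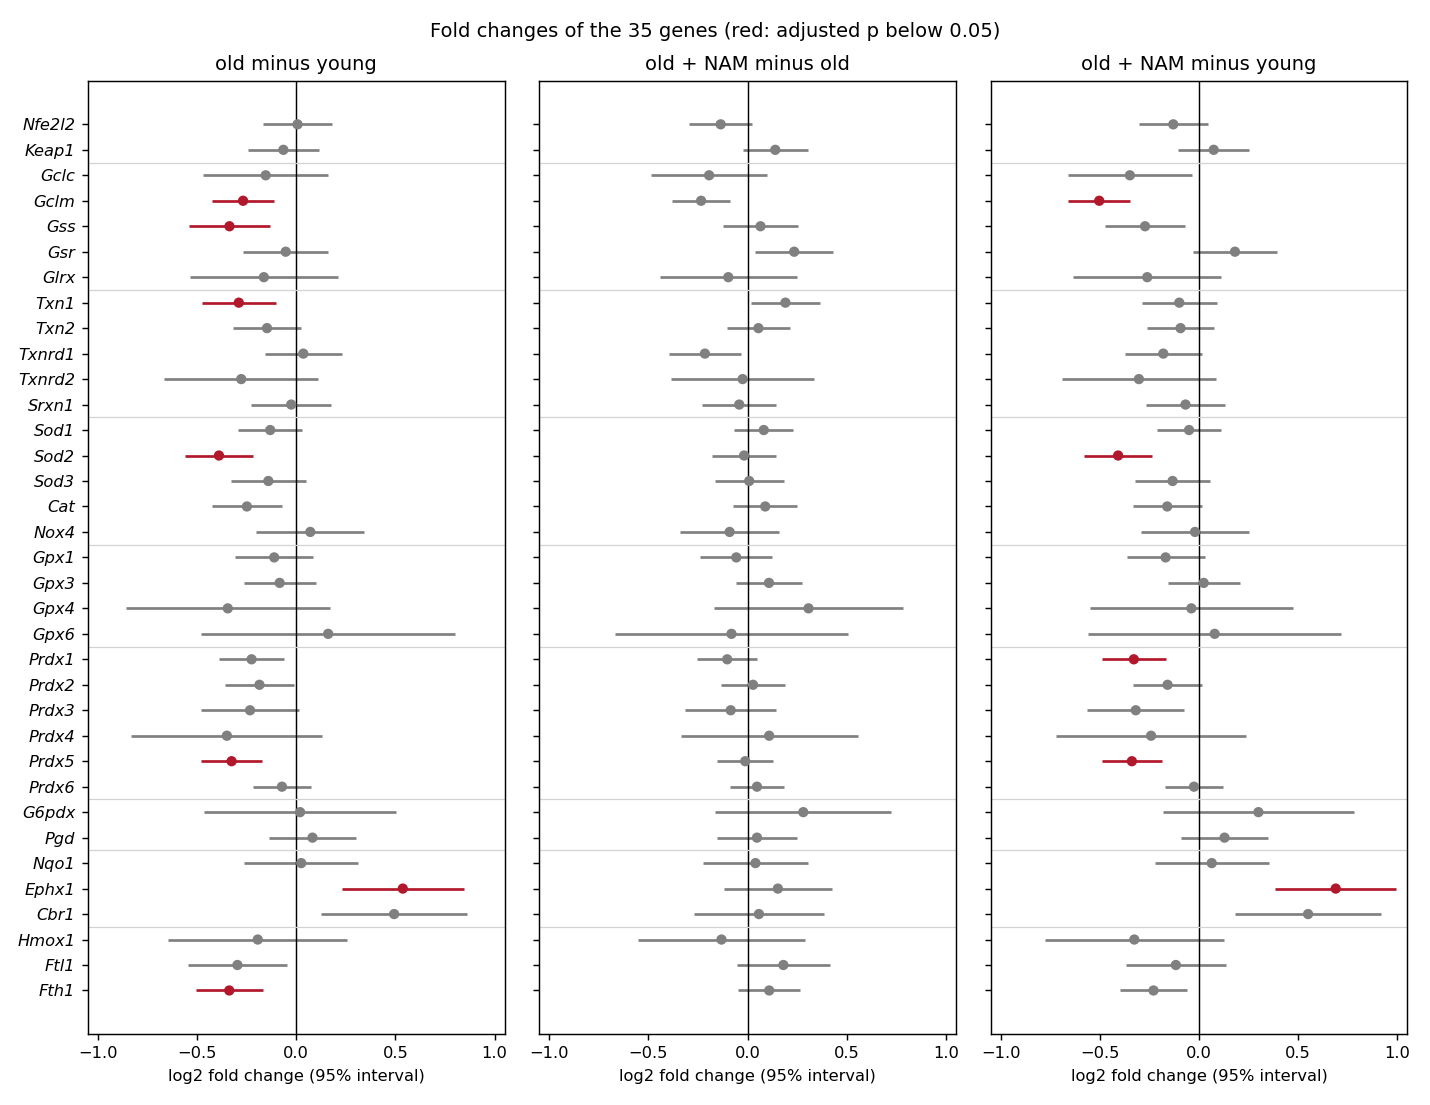
Log2 fold change of each gene (point) with its 95% interval (line) in the 3 comparisons, from the edgeR fit over 22 kidneys; genes are grouped by role and red marks an adjusted p below 0.05. In old minus young 6 red points lie left of 0 and Ephx1 lies right of it, in nicotinamide-fed minus old there is no red point, and in nicotinamide-fed minus young 5 are red.

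Among the genes that fell, Sod2 and Prdx5 work in mitochondria. Sod2 is the manganese superoxide dismutase of the mitochondrial matrix. Its level was 323 to 442 CPM in young (median 349), 238 to 315 CPM in old (median 268) and 221 to 319 CPM in nicotinamide-fed mice (median 274). All 8 old and all 8 nicotinamide-fed kidneys lay below the lowest young kidney, while both old groups covered nearly the same range. The log2 fold change was −0.39 ± 0.09 (SE) for old against young (adjusted p = 0.00311, edgeR) and −0.41 ± 0.09 for nicotinamide-fed against young (adjusted p = 0.00165, edgeR). Young replicate 6 had the highest level, and leaving out all 4 of the kidneys named above gave −0.32 (adjusted p = 0.00563) and −0.27 (adjusted p = 0.0344).

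Prdx5 is a peroxiredoxin found in mitochondria, peroxisomes and cytosol. Its levels were 1469 to 1764 CPM in young (median 1642), 1156 to 1387 CPM in old (median 1314) and 992 to 1438 CPM in nicotinamide-fed mice (median 1294). Again neither old group overlapped with the young one. The fall was −0.33 ± 0.08 with age (adjusted p = 0.00506, edgeR) and −0.34 ± 0.08 for nicotinamide-fed against young mice (adjusted p = 0.00293, edgeR). The other mitochondrial members, the thioredoxin Txn2, its reductase Txnrd2 and the peroxiredoxin Prdx3, had log2 fold changes of −0.15, −0.28 and −0.23 with age and did not pass (adjusted p = 0.328, 0.444 and 0.271, edgeR). The estimates of all 5 members counted here as mitochondrial lay below 0 and 2 of 5 passed. Of all tested genes, 51.9% had estimates above 0 and 3.15% passed downward. Since 26 of all 35 members lay below 0 and 17.1% passed downward, the lean was not particular to these 5.

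Fth1, which keeps iron in a form that cannot drive radical chemistry, had 2430 to 3032 CPM in young (median 2687), 1799 to 2395 CPM in old (median 2151) and 1753 to 2753 CPM in nicotinamide-fed mice (median 2333). No old kidney reached the lowest young kidney, whereas 2 of the 8 nicotinamide-fed kidneys did. The log2 fold change with age was −0.34 ± 0.08 (adjusted p = 0.00843, edgeR), and that of nicotinamide-fed against young mice, −0.23 ± 0.08, did not pass (adjusted p = 0.0781, edgeR). Ftl1, its partner chain, stood at 398 ± 68.1, 324 ± 78.7 and 367 ± 20.7 CPM in the 3 groups and did not pass in any comparison (adjusted p of 0.152 for old against young, edgeR). Hmox1, which frees iron from haem and is a common NRF2 readout, had 11.3 ± 5.01, 9.96 ± 1.54 and 9.08 ± 2.37 CPM and did not pass either (adjusted p = 0.689 with age, edgeR).

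Across all members, Sod2, Prdx5 and Fth1 were those whose young and old kidneys did not overlap, 3 of 35 genes, all lower in old, against 2.64% of all tested genes (1.31% lower and 1.33% higher). Their calls held in each of 30 alternative settings and subsets of kidneys. The other calls were less stable. Without old replicate 7 only those 3 members passed, and without young replicate 4 there were 4 (these 3 and Ephx1). The calls over all tested genes shifted too, from 668 to 1305 when 1 kidney was left out, against 1034 in the full data. Without the 4 kidneys named above, Sod2, Prdx5, Fth1, Gss and Ephx1 passed as before, with Cat, Ftl1 and Cbr1 added and Gclm and Txn1 lost. These changes are not set against the share of all genes passing in the same subset. The summed S1 and S2 proximal tubule markers were also lower in old (median 6681 CPM) than in young kidneys (8172 CPM), although 0 of 8 of these genes passed singly. Markers of other tubule segments did pass with age. Of 8 genes of proximal segment S3, 3 fell (Slc5a8 by 0.58, Atp11a by 0.55 and Slc22a30 by 0.49 on the log2 scale) and Slc6a18 rose. Of 6 each, 2 fell for the distal tubule (Calb1 and S100g), 1 for intercalated cells (Slc26a4), 1 for the loop of Henle (Cldn10) and 0 for principal cells. The other 5 loop of Henle genes had estimates above 0, and the median of that list was 0.16. Over all tested genes, 3.15% passed downward and 3.90% upward. The part of these tubule markers in the members' falls was not tested. In whole kidney, fewer cells of a type and less RNA per cell cannot be told apart.

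**Figure D3:**
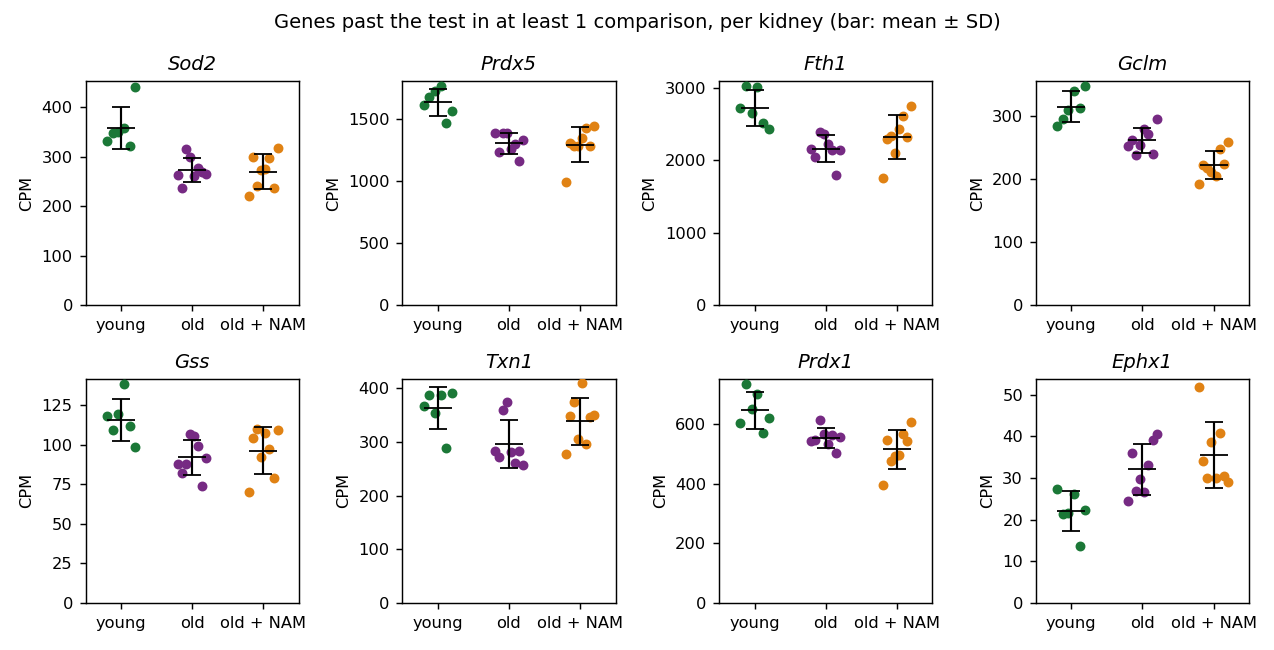
Level per kidney (points, CPM on linear axes from 0) of the 8 genes past the test in at least 1 comparison, with mean and SD (bars) for young (n = 6), old (n = 8) and old mice with nicotinamide (n = 8). For Sod2 and Prdx5 both old groups lie below all young kidneys, Gclm steps down from group to group, Txn1 of nicotinamide-fed mice lies between the others, and Ephx1 is higher in both old groups.

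Glutathione, the main small thiol of the cell, is made in 2 steps, by glutamate-cysteine ligase (catalytic subunit Gclc, modifier subunit Gclm) and by glutathione synthetase (Gss). Gclm had 285 to 348 CPM in young (median 312), 237 to 295 CPM in old (median 258) and 192 to 259 CPM in nicotinamide-fed mice (median 219). Thus 7 of 8 old kidneys lay below the lowest young kidney, and 6 of 8 nicotinamide-fed kidneys lay below the lowest old kidney. The log2 fold change was −0.27 ± 0.08 with age (adjusted p = 0.0263, edgeR) and −0.50 ± 0.08 for nicotinamide-fed against young mice (adjusted p = 3.72e-05, edgeR), the lowest adjusted p of any member. Without the 4 kidneys these were −0.22 (adjusted p = 0.0666) and −0.44 (adjusted p = 0.000261). The call with age was also lost without young replicate 4 (adjusted p = 0.0645), young replicate 6 (0.0709) or old replicate 7 (0.0542), all in edgeR.

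Gclc varied more between kidneys, from 149 to 323 CPM (young), 160 to 242 CPM (old) and 141 to 259 CPM (nicotinamide). It passed in no comparison (log2 fold change −0.15 ± 0.15 with age and −0.35 ± 0.15 for nicotinamide-fed against young, adjusted p = 0.630 and 0.171, edgeR). Gss fell with age. It had 98.4 to 138 CPM in young (median 115), 74.1 to 107 CPM in old (median 89.7) and 69.9 to 110 CPM in nicotinamide-fed mice (median 101). All old kidneys lay below the young median, and the groups overlapped. The log2 fold change of −0.34 ± 0.10 passed (adjusted p = 0.0309, edgeR) and was lost without young replicate 4 (adjusted p = 0.102), old replicate 7 (0.0737) or old replicate 2, and with a replicate block (0.0505). The reductase Gsr, which restores oxidised glutathione with NADPH, stood at 78.1 ± 9.48, 75.2 ± 4.58 and 88.5 ± 17.9 CPM. Glrx, the cytosolic glutaredoxin, stood at 17.9 ± 4.33, 15.8 ± 3.62 and 14.8 ± 3.66 CPM; neither passed in any comparison.

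Promoters were searched for the core of the antioxidant response element, TGACNNNGC, on both strands of the 250 bases before each start in the RefSeq table (build GRCm38.p6). Of the members, 30 had a promoter in the table and 6 of these held the core (G6pdx, Gclm, Nfe2l2, Prdx1, Sod1 and Txnrd1), while 11.6% of all 26742 genes in the table did. Gclm and Prdx1 are the members with a match that passed a test here; Nfe2l2 and Txnrd1 did not pass and are shown beside them. Each sequence below is written 5′ to 3′ on the minus strand of the genome, with the core in capitals:
Gclm, chr3:122245408-122245446: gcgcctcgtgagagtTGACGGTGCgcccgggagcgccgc
Prdx1, chr4:116685451-116685489: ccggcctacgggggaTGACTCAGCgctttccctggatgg
Nfe2l2, chr2:75704880-75704913: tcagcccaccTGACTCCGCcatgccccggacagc
Txnrd1, chr10:82859099-82859137: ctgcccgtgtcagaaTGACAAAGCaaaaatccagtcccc
These matches lie 134 to 126 bases (Gclm), 133 to 125 (Prdx1), 240 to 232 (Nfe2l2) and 92 to 84 bases (Txnrd1) upstream of the start. The matches of Sod1 (56 to 48 bases upstream) and G6pdx (57 to 49) are not printed. A match is a description of the letters. For the members with a window and no match it can only be said that this core is not in these windows, and Gclc, Gsr, Sod3, Prdx6 and Hmox1 had no window to search.

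The thioredoxin system passes electrons from NADPH through thioredoxin reductase to thioredoxin, which recharges peroxiredoxins. Txn1, the cytosolic thioredoxin, had 288 to 391 CPM in young (median 377), 257 to 375 CPM in old (median 282) and 277 to 410 CPM in nicotinamide-fed mice (median 347). All old kidneys lay below the young median and 7 of 8 nicotinamide-fed kidneys above the old median, with wide overlap between groups. The log2 fold change with age was −0.29 ± 0.09 (adjusted p = 0.0475, edgeR), a call that was lost in 17 of 30 alternatives (adjusted p of 0.0134 to 0.128). That of nicotinamide-fed against young mice was −0.10 ± 0.09 (adjusted p = 0.590, edgeR). Txnrd1, the cytosolic reductase, had 90.3 ± 10.3, 92.6 ± 14.3 and 79.8 ± 5.66 CPM, and Srxn1, the sulfiredoxin that repairs overoxidised peroxiredoxins, 65.0 ± 10.9, 64.0 ± 7.93 and 62.2 ± 3.70 CPM. Neither passed in any comparison.

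Peroxiredoxins are abundant thiol peroxidases. All 6 had estimates below 0 in old against young kidneys, and besides Prdx5 none passed. Prdx1, a cytosolic member and a known NRF2 target, had 572 to 736 CPM in young (median 636), 502 to 615 CPM in old (median 552) and 395 to 606 CPM in nicotinamide-fed mice (median 520). In each old group 7 of 8 kidneys lay below the lowest young kidney. Its log2 fold change was −0.23 ± 0.08 with age (adjusted p = 0.0827, edgeR) and −0.33 ± 0.08 for nicotinamide-fed against young mice (adjusted p = 0.00694, edgeR). The age value passed in 4 of 30 alternatives and the other in all 30. Prdx6, which also acts on phospholipids, had 193 ± 7.85, 183 ± 14.8 and 190 ± 9.78 CPM. Its biological coefficient of variation over the 3 groups together, 10.8%, was the lowest of the members. Prdx2, the main red cell peroxiredoxin, had 123 ± 13.6, 108 ± 9.01 and 110 ± 11 CPM (adjusted p = 0.200 with age, edgeR). Prdx4, which works in the endoplasmic reticulum, had 11.7 ± 4.09, 9.03 ± 3.20 and 9.79 ± 3.00 CPM.

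Among the other peroxide and superoxide enzymes, Sod1, the cytosolic copper-zinc superoxide dismutase, had 834 to 967 CPM in young (median 867), 665 to 916 CPM in old (median 797) and 645 to 933 CPM in nicotinamide-fed mice (median 867). The groups overlapped and the log2 fold change with age of −0.13 ± 0.08 did not pass (95% interval −0.29 to 0.03, adjusted p = 0.367, edgeR). Cat, the peroxisomal catalase, stood at 502 ± 35.9, 423 ± 40.5 and 450 ± 63.1 CPM. With age it was lower in 7 of 8 kidneys than in any young kidney, and its −0.25 ± 0.09 did not pass (adjusted p = 0.0731, edgeR). Without nicotinamide replicate 1 it did (adjusted p = 0.0155, edgeR). That kidney is in neither group compared and enters through the filter, the scaling and the estimate of the spread. Sod3, the secreted dismutase, had 317 ± 20.0, 287 ± 35.7 and 289 ± 46.7 CPM. Nox4, the source of hydrogen peroxide named above, had 181 ± 25.9, 190 ± 35.2 and 178 ± 37.3 CPM (log2 fold change with age 0.07, 95% interval −0.20 to 0.34).

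No glutathione peroxidase passed in any comparison. Gpx3 ranged from 15888 to 20107 CPM in young (median 17707), from 14170 to 21566 CPM in old (median 16026) and from 13989 to 21086 CPM in nicotinamide-fed mice (median 18673). The groups overlapped throughout, and the log2 fold change with age was −0.08 ± 0.09 (95% interval −0.27 to 0.10, adjusted p = 0.662, edgeR). Gpx1 had 1842 ± 277, 1706 ± 193 and 1639 ± 248 CPM. Gpx6, better known from olfactory tissue, was present at 12.6 to 48.9 CPM (young), 18.9 to 40.7 CPM (old) and 12.9 to 45.7 CPM (nicotinamide). Its biological coefficient of variation, estimated over the 3 groups together, was the highest of the members at 37.8%. As SD over mean, the spread of Gpx6 was 48.3% (young), 24.9% (old) and 44.3% (nicotinamide). In old kidneys that of Gpx4 was larger (42.4%). Gpx4, subject to the shared sequence given above, had 7.78 ± 2.06, 6.11 ± 2.59 and 7.54 ± 1.5 CPM.

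Nfe2l2 and Keap1 themselves showed no difference that passed. Nfe2l2 had 107 to 132 CPM in young (median 124), 109 to 135 CPM in old (median 124) and 91.2 to 137 CPM in nicotinamide-fed mice (median 113). The young and old ranges nearly coincided. Its log2 fold change was 0.01 ± 0.09 with age (95% interval −0.17 to 0.18, adjusted p = 0.980, edgeR) and −0.14 ± 0.08 for nicotinamide-fed against old mice (−0.30 to 0.02, adjusted p = 0.841, edgeR). Keap1 had 77.2 to 97.9 CPM in young (median 82.2), 73.3 to 94.2 CPM in old (median 80.0) and 76.8 to 107 CPM in nicotinamide-fed mice (median 89.0). Here the estimates were −0.07 ± 0.09 (−0.24 to 0.11) and 0.14 ± 0.08 (−0.03 to 0.30), with adjusted p of 0.745 and 0.841 in edgeR.

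Nqo1, the quinone reductase used most often as a readout of NRF2, had 21.5 to 32.2 CPM in young (median 28.1), 18.1 to 34.3 CPM in old (median 29.7) and 23.3 to 33.4 CPM in nicotinamide-fed mice (median 29.1). All 3 ranges overlapped. The log2 fold change was 0.02 ± 0.14 with age (95% interval −0.26 to 0.31, adjusted p = 0.950, edgeR) and 0.04 ± 0.13 for nicotinamide-fed against old mice (−0.23 to 0.30, adjusted p = 0.985, edgeR).

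**Figure D4:**
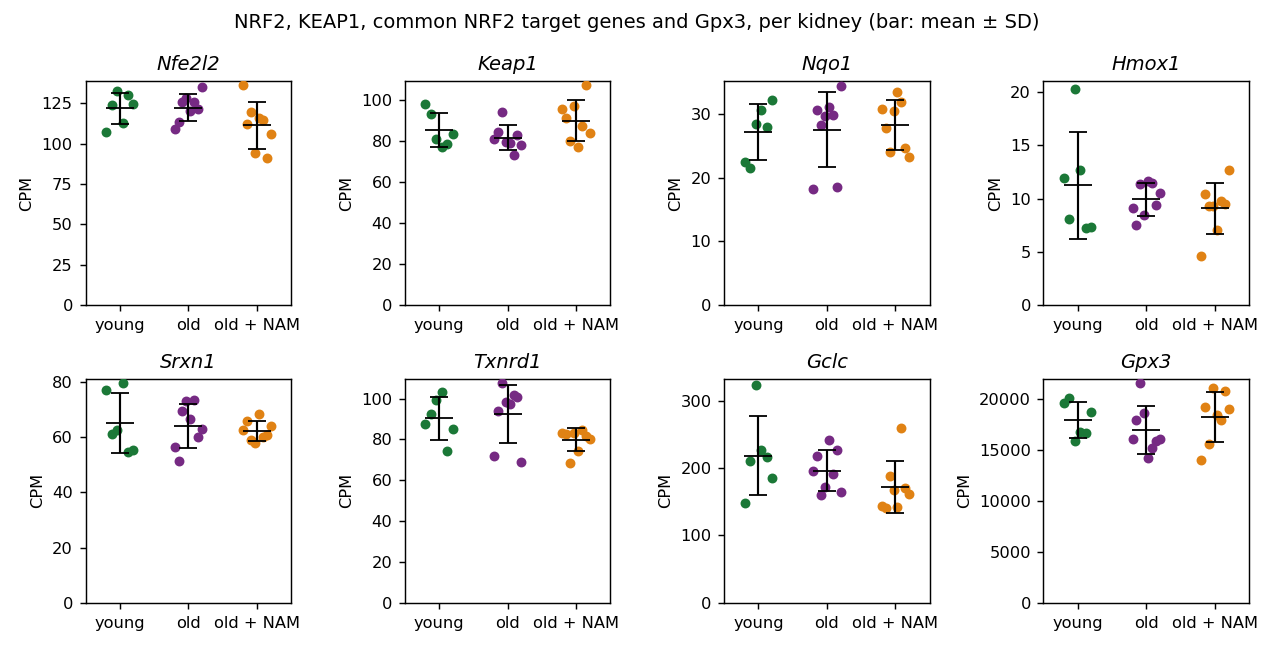
Level per kidney (points, CPM on linear axes from 0) of Nfe2l2, Keap1, 5 common NRF2 target genes and Gpx3, with mean and SD (bars) for young (n = 6), old (n = 8) and old mice with nicotinamide (n = 8). The groups overlap in every panel, and Gclc and Hmox1 of young mice have the widest spread.

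Of the other detoxifying members, Ephx1 rose with age and Cbr1 did not pass. Ephx1, the microsomal epoxide hydrolase, had 13.8 to 27.3 CPM in young (median 21.95), 24.4 to 40.7 CPM in old (median 31.5) and 29.0 to 51.9 CPM in nicotinamide-fed mice (median 32.3). In old mice 5 of 8 kidneys, and in nicotinamide-fed mice all 8, lay above the highest young kidney. It rose by 0.54 ± 0.15 with age (adjusted p = 0.0228, edgeR) and by 0.69 ± 0.15 in nicotinamide-fed against young mice (adjusted p = 0.00251, edgeR). The age call was lost without young replicate 5 (adjusted p = 0.0818), which had the lowest level, without old replicate 7 (0.0537) and without old replicate 8. Cbr1, a carbonyl reductase, had 25.4 to 46.8 CPM in young (median 35.3), 32.3 to 61.05 CPM in old (median 50.3) and 31.8 to 78.9 CPM in nicotinamide-fed mice (median 51.5). In both old groups 5 of 8 kidneys lay above the highest young kidney, and the estimates of 0.49 ± 0.18 and 0.55 ± 0.18 did not pass (adjusted p = 0.0973 and 0.0531, edgeR). They passed in 6 and 10 of 30 alternatives, DESeq2 and the data without a filter on low counts among both (adjusted p of 0.0113 to 0.203 and of 0.00362 to 0.125 over the 30).

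NADPH for both thiol systems comes in part from the pentose phosphate enzymes G6pdx and Pgd. Pgd had 54.4 to 79.3 CPM in young (median 62.4), 52.5 to 79.3 CPM in old (median 70.8) and 54.3 to 85.0 CPM in nicotinamide-fed mice (median 73.8), with full overlap. Its log2 fold change was 0.08 ± 0.11 with age and 0.13 ± 0.11 for nicotinamide-fed against young mice (adjusted p = 0.736 and 0.534, edgeR). G6pdx, the first enzyme of the pathway, had 9.95 ± 3.12, 10.2 ± 4.19 and 12.3 ± 3.66 CPM and did not pass.

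Nicotinamide-fed against old kidneys, the second main comparison, asks what the diet changed in old animals. None of the 35 members passed in edgeR, and 0 passed in DESeq2 and in limma-voom, while 0.0272% of all tested genes (4 genes) passed in edgeR, 0.0136% in each direction. No member separated the groups without overlap, which 0.0272% of all genes did (0.0136% in each direction). At an unadjusted p below 0.05 there were 4 members (Gclm, Gsr, Txnrd1 and Txn1), against 6.18% of all tested genes. The median log2 fold change was 0.04 over the members and 0.01 over all genes. Intervals of single members were ± 0.14 to ± 0.585 on the log2 scale (median 0.19).

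For the genes that had changed with age, no estimate between nicotinamide-fed and old mice passed. Only the 95% intervals of Txn1 and Gclm, unadjusted for the number of genes, left out 0. Estimates were −0.02 for Sod2 (95% interval −0.18 to 0.14), −0.01 for Prdx5 (−0.15 to 0.13), 0.11 for Fth1 (−0.05 to 0.26) and 0.06 for Gss (−0.12 to 0.25). Ephx1 differed by 0.15 (−0.12 to 0.43). Txn1 had the estimate 0.19 (0.02 to 0.36, adjusted p = 0.755, edgeR). The same 8 old kidneys enter this comparison and the one with age. Genes picked for a difference with age can lean back toward young here through that choice alone. Gclm, at −0.23 ± 0.07 (−0.38 to −0.09), had the lowest unadjusted p of the members in this comparison (adjusted p = 0.523, edgeR), and over the 30 alternatives its adjusted p ranged from 0.245 to 0.731. Gsr had 0.23 ± 0.10 and Txnrd1 −0.22 ± 0.09, with adjusted p of 0.701 and 0.704 in edgeR. For Txnrd1 all 8 nicotinamide-fed kidneys lay below the old median.

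Nicotinamide-fed against young kidneys is a secondary comparison that shares its libraries with both of the others. Here 4 members fell (Gclm, Sod2, Prdx5 and Prdx1) and Ephx1 rose, 5 of 35, while 8.70% of all tested genes passed (4.73% upward and 3.96% downward). These 5 passed in all 30 alternatives. The count of members rose to 8 without nicotinamide replicate 8, with Cbr1, Fth1 and Gss added. Ranges did not overlap for Gclm, Sod2, Prdx5 and Ephx1, against 2.21% of all tested genes (1.12% higher and 1.08% lower). The calls of Fth1, Gss and Txn1 seen with age were absent here and that of Prdx1 was added; the difference itself, nicotinamide-fed against old, did not pass for any of them.

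Other genes of these pathways were read from 7 lists of 123 genes, of which 113 were tested. With age 8 rose and 12 fell, 17.7% of those tested, against 7.04% of all tested genes (3.90% up and 3.15% down), which is also the background of the counts by list that follow. The list of other glutathione genes had 4 of 20 down and 0 up, among them Hagh, a glyoxalase that releases glutathione (93.5 ± 9.07 CPM in young and 75.1 ± 8.61 in old). The NRF2 control list had 1 of 15 down, Sqstm1, the autophagy receptor p62 that binds KEAP1 (398 ± 27.9 and 315 ± 22.9 CPM, log2 fold change −0.34 ± 0.08, adjusted p = 0.00500, edgeR). Other NRF2 targets had 1 of 19 up and 1 down: the exporter Abcc1 (9.41 ± 2.16 and 17.1 ± 2.86 CPM) and Me1, the malic enzyme that makes NADPH, which had 238 to 299 CPM in young and 181 to 222 CPM in old kidneys, without overlap (−0.46 ± 0.09, adjusted p = 0.00107, edgeR).

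The lowest adjusted p in these lists belonged to Selenop, which encodes the selenium carrier of plasma: 1052 to 1424 CPM in young and 566 to 939 CPM in old kidneys, again without overlap (−0.71 ± 0.12, adjusted p = 0.000979, edgeR). Selenow, a small muscle-rich selenoprotein, rose from 14.2 ± 2.39 to 22.5 ± 4.95 CPM, so selenium genes moved both ways (2 up and 1 down of 11). Of the iron list, 2 rose and 1 fell of 18 tested. Cp, the plasma ferroxidase ceruloplasmin, rose 1.96-fold (67.4 ± 7.91 to 132 ± 24.3 CPM, adjusted p = 0.00118, edgeR). Trf, the iron carrier transferrin, rose 2.15-fold (12.8 ± 0.518 to 27.6 ± 6.91 CPM, adjusted p = 0.00135, edgeR). Aco1, the cytosolic aconitase that doubles as an iron sensor, fell 1.35-fold (155 ± 12.4 to 115 ± 11.5 CPM, adjusted p = 0.00231, edgeR). Like Me1 and Selenop, the genes Hagh, Sqstm1, Abcc1, Cp, Trf and Aco1 had young and old ranges without overlap, while those of Selenow overlapped. Of all tested genes, 2.64% had no overlap between young and old kidneys.

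Of the oxidant sources, 3 rose and 2 fell of 16 tested. Cybb, the catalytic subunit of the phagocyte NADPH oxidase, rose 2.34-fold, from 10.2 to 24.2 CPM in young to 22.2 to 45.3 CPM in old kidneys (adjusted p = 0.00118, edgeR). Its partner Ncf1 rose as well (2.57 ± 1.73 to 7.0 ± 3.12 CPM, adjusted p = 0.0127, edgeR). Macrophage markers moved with both: 10 of 12 rose, with a median log2 fold change of 1.44, and the part of these cells in the rise was not tested. Nicotinamide-fed against old mice gave 0 of 113 calls in edgeR, DESeq2 and limma-voom, with 7 at an unadjusted p below 0.05 in edgeR. Of all tested genes, 0.0272% were called and 6.18% had an unadjusted p below 0.05, both in edgeR. Against young mice the nicotinamide-fed group had 10 up and 12 down of 113, where 4.73% and 3.96% of all tested genes did, with Cybb (2.55-fold higher), Trf (2.28-fold higher), Selenop (1.64-fold lower), Me1 (1.37-fold lower), Cp (1.96-fold higher) and Hagh (1.37-fold lower) the lowest in adjusted p (0.000340 to 0.00128, edgeR).

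Whether kidneys with more of 1 NRF2 target also had more of another was examined for 8 common targets (Nqo1, Gclc, Gclm, Srxn1, Txnrd1, Hmox1, G6pdx and Pgd), on log2(CPM + 0.5) centred on the group means over 22 kidneys. Of 28 pairs, 16 had a positive Pearson r and the median was 0.11. No pair passed a permutation test within groups after Benjamini-Hochberg adjustment, by Pearson's r or Spearman's rho, and at an unadjusted p below 0.05 there were 0 and 3 pairs. Of these 3, Hmox1 with Srxn1 and Hmox1 with Txnrd1 were positive. Gclc with Srxn1 was negative (rho = −0.45, permutation p = 0.0467, adjusted p = 0.384). By Pearson's r the pair lowest in p was Srxn1 with Txnrd1 (r = 0.42, permutation p = 0.0986, adjusted p = 0.518; rho = 0.41, permutation p = 0.0917, adjusted p = 0.428). Without the 2 kidneys farthest from the median of Srxn1, r was 0.43. By Spearman's rho it was Srxn1 with Hmox1 (rho = 0.54, permutation p = 0.0206, adjusted p = 0.384; r = 0.38, permutation p = 0.136, adjusted p = 0.518), whose r was 0.29 without the 2 farthest kidneys.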

How the data were processed

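The deposited table holds raw read counts per mouse Ensembl gene for 22 libraries (QuantSeq 3′ FWD, polyadenylated RNA of kidney, per the labels' protocols). STAR and HTSeq are named in the submitters' processing notes. Not given in the sources used here: versions, strand setting, handling of PCR copies. The notes name GRCh38, a human build, while all identifiers are of mouse, so gene coordinates are not printed. Reads outside genes or ambiguous between them (19.6% to 25.2% of a library) were left out, and reads with more than 1 alignment numbered 0. Symbols came from GENCODE M21 (55141 identifiers matched).

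Genes were filtered with filterByExpr (minimum count 10, minimum total 15), which kept 99.8% of the counts in 14683 genes. A single edgeR 4.0.16 quasi-likelihood fit (TMM factors, robust, no covariates; R 4.3.3) took in all 22 libraries. Tests were two-sided, p-values were adjusted by Benjamini-Hochberg over all tested genes, and a gene passed below 0.05. Each SE was obtained by dividing the size of the log2 fold change by √F. CPM is per 1000000 counts of the TMM-scaled library. DESeq2 1.42.0 and limma-voom (limma 3.58.1) were alternatives, as were other scaling, no filter, 2-group fits, a replicate block, each library left out, and all 4 kidneys that stood apart left out (young replicate 6, old replicate 7, nicotinamide replicates 1 and 7, taken from earlier results of these data). Scripts were tested on simulated counts.

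No 2 libraries of a group (71 pairs) agreed within counting error, with chi-square over degrees of freedom of 5.50 to 39.4. Counts of a member in a library were 21 to 157853; their sampling error covers counting only. The members and all gene lists were chosen with earlier results of these data known. Full values are given for members past the test, for Nfe2l2, Keap1 and Nqo1 and for the highest member of each role group, and of the other pathway genes the 6 lowest in adjusted p per comparison were named; Hagh, Sqstm1, Abcc1, Selenow and Ncf1 were added for old against young after their values were seen.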

Additional observations from a re-analysis of the deposited data

Results flagged for a closer look

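In 9 of 105 sets of values (35 genes in 3 groups) the highest or lowest kidney lay farther from the others than Dixon's criterion allows at 95%; chance alone flags about 1 in 20 sets. Nicotinamide replicate 1 accounted for 4 of them. It was lowest in Sod1 (645 CPM, the others 832 to 933), Prdx5 (992 CPM, 1277 to 1438) and Cat (310 CPM, 427 to 512) and highest in G6pdx (20.3 CPM, 8.86 to 13.4). The same kidney had the lowest S1 and S2 marker sum (4354 CPM) and the highest adipocyte sum (362 CPM); their part in these values was not tested. Without it the log2 fold changes of nicotinamide-fed against old mice were 0.13, 0.04, 0.15 and 0.14 for Sod1, Prdx5, Cat and G6pdx, and none passed in edgeR (adjusted p of 0.525 to 0.925).

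Young replicate 6, the library of lowest depth, was highest in Sod2 (442 CPM, the other young kidneys 323 to 358). Without it Sod2 still fell with age (−0.33, adjusted p = 0.0183, edgeR). Young replicate 4 was highest in Prdx2 (149 CPM, 108 to 123) and Txn2 (177 CPM, 124 to 143), neither of which passed with it or without it. Young replicate 5 was lowest in Txn1 (288 CPM, 354 to 391), and without it the fall of Txn1 was −0.36 (adjusted p = 0.0176, edgeR). Nicotinamide replicate 6 was highest in Gclc (259 CPM, the others 141 to 188), and without it Gclc passed in nicotinamide-fed against young mice (−0.46, adjusted p = 0.0256, edgeR).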

How the results depend on the processing

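For 15 named members in 3 comparisons, 30 alternatives gave 1350 fold changes: 28 lost a call, 24 gained one, none was called with the opposite sign, and 39 uncalled estimates changed sign. With age, members past the test numbered 3 to 10 when 1 kidney was left out (7 in the full data), other pathway genes 12 to 28 (20) and all genes 668 to 1305 (1034). For nicotinamide-fed against young mice these ranges were 5 to 8 (5), 17 to 27 (22) and 835 to 1438 (1277), and without the 4 kidneys 801 genes passed in all. For nicotinamide-fed against old mice they were 0, 0 and 1 to 9 genes (4 in the full data), and 10 genes passed in DESeq2, 7 without a filter on low counts and 1 without ribosomal RNA and mitochondrially encoded genes. The cause of these shifts was not tested. Equal replicate numbers did not pair the kidneys (20 pairs, correlations of −0.082 to 0.0587, 0 above 0.1). With a replicate block 5 members passed with age (Gss and Txn1 lost), 0 for nicotinamide-fed against old and 6 against young, and 904, 3 and 1081 genes in all, with 15, 0 and 20 other pathway genes. Depth limits the members of low level: Gpx4, Hmox1, Prdx4 and G6pdx had 21 to 157 counts in a library.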
